A study of Mus musculus with 24 samples.

Results

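The collagens measured here are the probes on a mouse mRNA array whose gene name has the form Col, a number, the letter a and a second number, each name standing for one alpha chain of one collagen. The rule found 63 probes on 72 spots for 41 gene names, out of 55681 probes and 36163 gene names on the array. It used names only and no measured value, and it did not find Col6a3, Col6a5, Col21a1 or Col26a1. Hippocampal RNA came from male C57BL/6 mice killed on postnatal day 9, with 5 animals and 5 one-colour Agilent arrays in each of 3 groups. Con pups were untreated and stayed with the dam. MS2 and MS5 pups had, from day 5, daily isolation from the dam, brief breathing of nitrogen and then of pure oxygen to mimic apnea, and morphine injections at 2 or 5 mg/kg. No group received morphine or stress alone, so a difference from Con cannot be assigned to either, while MS5 against MS2 differs in the dose given. Both hippocampi of an animal were put in 1 tube, and no cell type was isolated.

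Collagens are secreted or membrane-bound proteins built from 3 alpha chains that wind into a triple helix, which is possible because glycine recurs at regular intervals along each chain. Fibrillar collagens such as types I, III and V form cables, type IV forms the sheet of basement membranes, type VIII forms hexagonal lattices, type VI forms beaded filaments, and the FACIT collagens decorate fibrils. Multiplexins (types XV and XVIII) sit in basement membranes, and transmembrane collagens such as types XIII, XVII, XXIII and XXV are anchored in the cell surface. In brain, the neuropil is poor in fibrillar collagen, which is mostly made by fibroblasts of the meninges and of larger vessels, while vascular cells make the type IV sheet and the choroid plexus and some neurons make others.

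The glycine repeat can be read directly from 2 of the 63 probes, shown because they are the only probes in which a glycine codon recurs every 3 codons over the whole 60-base probe. The glycine codons are in capitals, the sequences are those of the array files, and the positions are on mm9.
Col25a1 A_55_P2107711, chr3:130270497-130270556, plus strand: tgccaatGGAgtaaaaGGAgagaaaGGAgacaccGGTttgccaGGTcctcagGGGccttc
Col15a1 A_55_P2060386, chr4:47283786-47283845, plus strand: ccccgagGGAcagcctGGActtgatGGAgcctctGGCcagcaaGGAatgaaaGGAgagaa
Probe positions elsewhere in the text are also on mm9, as the array files give them, and their place in exons was not looked up.

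A value below is a log2 intensity after background adjustment and quantile normalization, and it may be compared between arrays for 1 probe but not between probes. Of the 63 probes, 51 were well above background on all 15 arrays, 5 more on every array of at least 1 group, and 7 in no group in full. The number of arrays limits the precision of every value. Each array is 1 animal, and litters are not given in the sources used here. Several arrays stood apart from the rest before any collagen was considered. MS2 replicate 4 carried a mean of 10 hippocampal neuron markers that was 1.99 (log2) below the Con mean, where the other 14 arrays lay between -0.30 and 0.16. MS2 replicate 5 had a median spot signal of 50 against 99 to 126 on the other arrays. MS5 replicate 9 carried Xist at 11.34 although every animal was labelled male, and the other arrays reached 6.08 at most. The 15 choroid plexus markers, all well above background on all 15 arrays, had means from -0.49 to 0.41 in Con, -0.42 to 0.16 in MS2 and -3.10 to -0.07 in MS5. The lowest were those of MS5 replicate 14, at -3.10, and MS5 replicate 9, at -2.19. In bulk tissue fewer cells of a type and less RNA per cell cannot be told apart. All 3 groups were present on both slides.

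After 2 mg/kg morphine with stress, the collagens as a group were at the level of untreated pups. The 63 differences between MS2 and Con had a median of 0.01 (log2), against -0.002 over all 55681 probes, and 54 of them were within 0.2. At an unadjusted p under 0.05 in limma, 0 members were lower and 1 was higher, a share of 1.59%, where 2.12% and 2.05% of all probes were lower and higher. No member passed the threshold that the study used, a change over 1.5-fold at an unadjusted p below 0.05, which called 0.00718% of all probes lower and 0.0162% higher. The 5 MS2 arrays lay above the 5 Con arrays at 1 member and below them at 0, against 0.309% and 0.393% of all probes.

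After 5 mg/kg morphine with stress, more collagens lay below Con than above it. The median difference was -0.06 (log2) against 0.0004 over all probes, and 41 of 63 members had a lower mean, a share of 65.1% against 49.8% of all probes. At an unadjusted p under 0.05, 9 members were lower, which is 14.3% of them against 2.43% of all probes, and 0 were higher against 1.47%. The 9 probes belong to Col4a3, Col4a4, Col4a5, Col8a1, Col8a2, Col9a1, Col18a1 (both its probes) and Col27a1. Of all 55681 probes, 15581 were not well above background on every array of any group, against 7 of the 63 members. The shares of members and of all probes, in each contrast, are therefore not like for like. The collagens were also chosen with earlier results of these data known. At the study's threshold 2 members were lower, Col8a1 and Col8a2, where 0.183% of all probes were lower, and 0 members were higher, where 0.0449% of all probes were. All 5 MS5 arrays lay below all 5 Con arrays at 3 members, against 0.519% of all probes, and above them at 0 members, against 0.309%. After Benjamini-Hochberg adjustment limma called 0 of the 55681 mRNA probes in any of the 3 contrasts, 0% of those tested. The smallest adjusted p of a collagen was 0.970 in MS2, 1.00 in MS5 and 1.00 between the doses.

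Between the doses 7 collagen probes were lower at 5 than at 2 mg/kg at an unadjusted p under 0.05, and 46 of 63 differences were within 0.2. The median of MS5 minus MS2 was -0.10 (log2) against 0.001 over all probes, and 48 of 63 members had the lower mean in MS5, which is 76.2% against 49.3% of all probes. The 7 lower members are 11.1% against 2.25% of all probes, and 0 were higher against 1.72%. Without MS5 replicates 9 and 14, 2 were lower and 1 higher, and with the choroid plexus covariate 1 was lower and 2 were higher, both settings chosen after seeing the data. The 7 were probes of Col4a1, Col4a3, Col4a4, Col8a1, the second probe of Col14a1 and both probes of Col18a1. Past 1.5-fold there was 1 lower member, Col8a1, against 0.111% of all probes, and 0 higher against 0.018%. In each of those settings there was 0 either way. Complete separation was seen at 1 member, lower in MS5, against 0.383% of all probes, and at 0 in the other direction, against 0.239%. The contrasts of MS5 with Con and with MS2 share the MS5 arrays, and those of MS2 and MS5 with Con share the Con arrays.

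**Figure D1:**
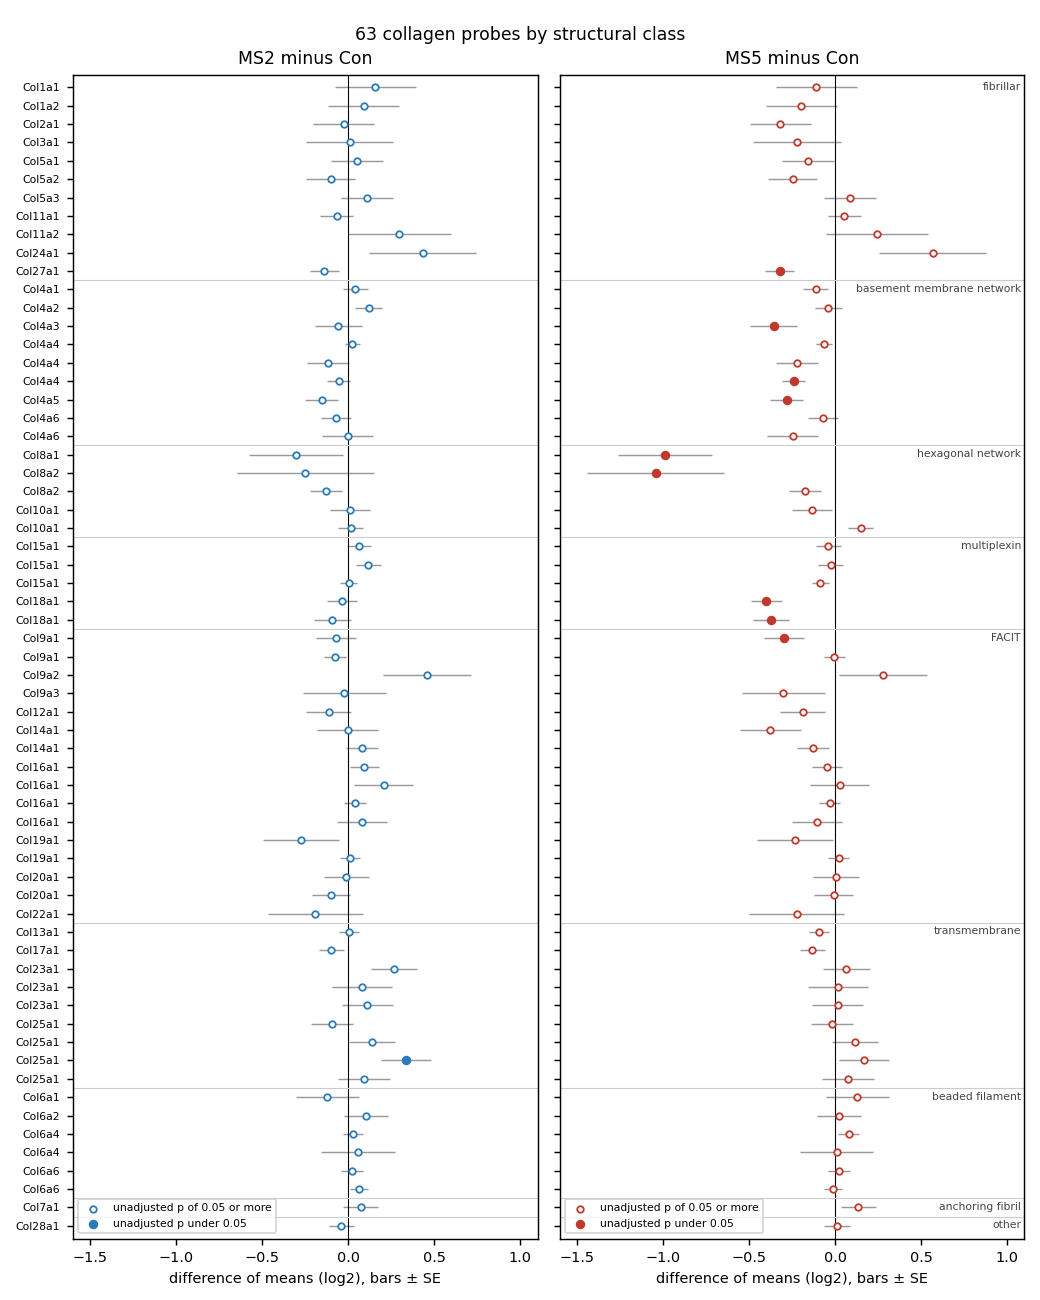
Differences of group means (log2, x axis) for each of the 63 collagen probes (y axis, by gene and structural class), MS2 minus Con on the left and MS5 minus Con on the right, with bars of 1 standard error and filled points at an unadjusted p under 0.05. On the left 1 point is filled, and on the right 9 are, all to the left of 0, with Col8a1 and the first probe of Col8a2 farthest from 0.

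These counts changed when arrays that stood apart were left out, alternatives that were chosen after seeing the data. Without MS2 replicates 4 and 5 and MS5 replicate 9, 12 members were lower in MS5 than in Con at an unadjusted p under 0.05 and 4 were higher, beside 3.51% and 3.18% of all probes. The 4 higher ones were probes of Col9a2, Col11a2, Col24a1 and Col25a1. Without MS5 replicates 9 and 14, which had the lowest choroid plexus markers, 7 members were lower and 1 was higher, beside 1.31% and 1.01% of all probes. With the mean of the choroid plexus markers as a covariate, 3 members were lower, both probes of Col18a1 and the probe of Col12a1, and 1 was higher, beside 1.40% and 0.984% of all probes. The median of the members was then -0.007.

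Type VIII collagen had the largest differences in MS5, against Con and against MS2. Col8a1 and Col8a2 encode its alpha-1 and alpha-2 chains, which build the hexagonal lattice known from the membrane under corneal endothelium and from vessel walls. The Col8a1 probe, chr16:57624471-57624530 on the minus strand, read 8.00, 8.91, 8.86, 8.24 and 8.57 on Con replicates 15 to 19. It read 8.19, 8.37, 7.99, 8.50 and 8.03 on MS2 replicates 1, 3, 4, 5 and 7, and 7.89, 7.09, 7.91, 8.20 and 6.54 on MS5 replicates 8, 9, 12, 13 and 14. Of the MS5 arrays 4 lay below every Con array, replicates 9 and 14 were the lowest of all, and replicate 13 was inside the Con range. The mean was 8.52 ± 0.39 in Con and 7.53 ± 0.69 in MS5 (SD, n = 5), a difference of -0.99 with a standard error of 0.27, or 1.99-fold (two-sided exact permutation p = 0.0159, where the smallest possible with 5 against 5 arrays is 0.00794). In limma the unadjusted p was 0.00259. The MS2 mean was 8.22 ± 0.22, which was 0.30 below Con (unadjusted p = 0.288) and 0.69 above MS5 (unadjusted p = 0.0238), a difference of 0.22 without MS5 replicates 9 and 14 (unadjusted p = 0.286).

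The first Col8a2 probe, A_52_P302544 at chr4:125991441-125991500 on the plus strand, followed the same arrays. It read 9.49, 10.77, 10.52, 9.70 and 10.40 in Con and 9.90, 8.53, 10.13, 9.41 and 7.72 in MS5, in the same order of replicates. Replicates 9 and 14 were again the lowest, and 3 of the 5 MS5 arrays lay below all Con arrays. The means were 10.18 ± 0.55 in Con, 9.93 ± 0.34 in MS2 and 9.14 ± 1.00 in MS5. MS5 was 1.04 below Con with a standard error of 0.40 (unadjusted p = 0.0194 in limma), while the two-sided exact permutation test gave p = 0.0794. MS2 was 0.25 below Con (unadjusted p = 0.540). The second Col8a2 probe, A_55_P1960631 at chr4:125989478-125989537, lies upstream of the first and differed less, by -0.17 in MS5 with a standard error of 0.09 (unadjusted p = 0.0745) and by -0.13 in MS2. Both probes were lower in MS5, and the size of the Col8a2 difference depended on the probe. Col10a1, the other chain of the hexagonal class and a cartilage collagen, differed by -0.13 and 0.15 between MS5 and Con on probes that were well above background on 13 and 1 of the 15 arrays.

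**Figure D2:**
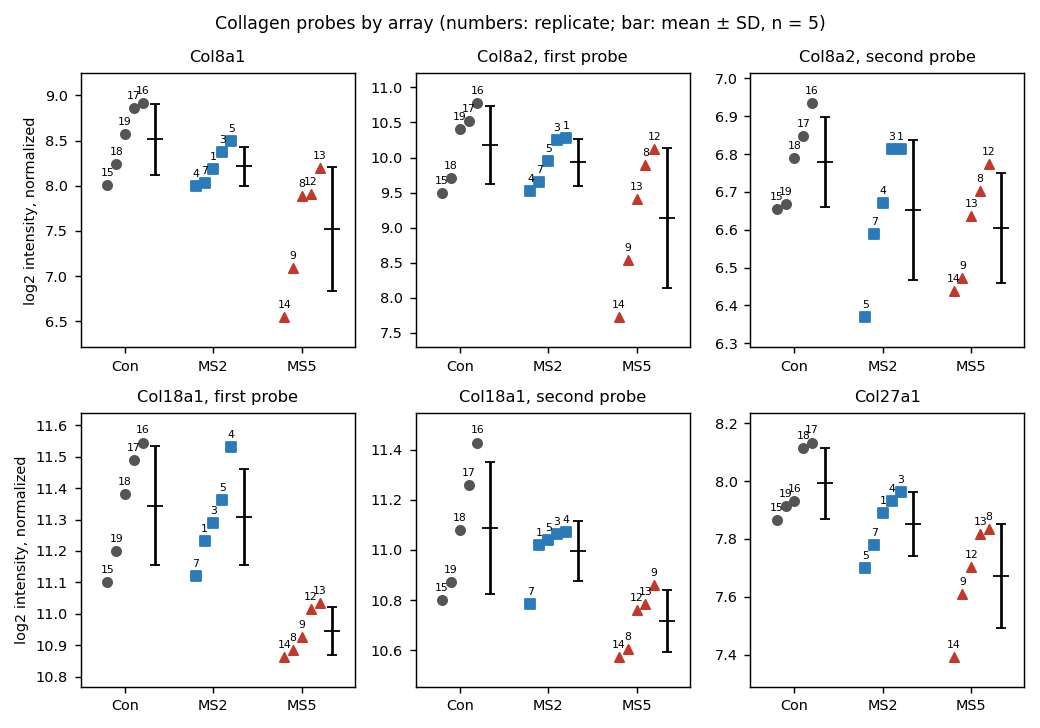
Normalized log2 intensity (y axis) on each array for 6 collagen probes, by group (x axis), with replicate numbers beside the points and the mean ± SD of 5 arrays beside each group. MS5 replicates 9 and 14 are lowest for Col8a1 and the first Col8a2 probe, whereas for the first Col18a1 probe and for Col27a1 all 5 MS5 arrays lie below all 5 Con arrays.

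The type VIII values moved with the choroid plexus, the ependyma-derived tissue that makes cerebrospinal fluid and borders the hippocampus in the lateral ventricle. All 15 markers on the choroid plexus list had lower means in MS5 than in Con, 13 at an unadjusted p under 0.05. All 15 were well above background on every array. The study had already reported Folr1, Kl, Aqp1, Cldn2, Slc4a5, Calml4, F5, Clic6 and Otx2 from this list as lower in MS5 on these arrays. The list was chosen with earlier results known, so the lower means were partly fixed by that choice and are not independent support. Ttr, the transthyretin gene, read 17.66 to 18.15 in Con and 17.89, 15.93, 17.92, 17.50 and 12.84 on MS5 replicates 8, 9, 12, 13 and 14. Taken as deviations from the group means over the 15 arrays, the marker mean correlated with Col8a1 at Pearson r = 0.88 and Spearman rho = 0.92 (permutation p = 4.0e-05 and 2.0e-05, adjusted over 18 relations 0.00018 and 0.00018). The r was 0.81 without the 2 arrays farthest from the median, MS5 replicates 14 and 12, and 0.85 and 0.91 within the slides of 8 and 7 arrays. With the first Col8a2 probe r was 0.96 and rho 0.95 (permutation p = 1.0e-05 for each, the smallest that 100000 resamples can give, adjusted 9.0e-05 and 0.00018), with r = 0.92 without those 2 arrays and 0.97 within each slide.

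Without MS5 replicates 9 and 14 the MS5 difference was -0.52 for Col8a1 (unadjusted p = 0.0199) and -0.37 for Col8a2 (unadjusted p = 0.228). Neither was then past 1.5-fold with an unadjusted p under 0.05. With the marker mean as a covariate the difference was -0.32 for Col8a1 (unadjusted p = 0.0814) and 0.03 for Col8a2 (unadjusted p = 0.843). Within slide 1, which holds neither of those arrays, MS5 minus Con was -0.32 at Col8a1 and -0.25 at Col8a2, and within slide 2 it was -1.56 and -1.80. The part of choroid plexus tissue in the dissected samples was not tested. Between arrays the 2 chains moved together, with r = 0.90 and rho = 0.87 over 15 arrays (permutation p = 3.0e-05 and 7.0e-05, adjusted 0.00018 and 0.00042), 0.92 without MS5 replicates 13 and 14, and 0.82 and 0.95 within the slides.

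Because these 2 chains moved together, their upstream regions are shown, 250 bases before the RefSeq gene start on GRCm38.p6, 5′ to 3′ on the gene's strand. Capitals mark GGGCGG and its reverse complement CCGCCC.
Col8a1, chr16:57754738-57754987, minus strand: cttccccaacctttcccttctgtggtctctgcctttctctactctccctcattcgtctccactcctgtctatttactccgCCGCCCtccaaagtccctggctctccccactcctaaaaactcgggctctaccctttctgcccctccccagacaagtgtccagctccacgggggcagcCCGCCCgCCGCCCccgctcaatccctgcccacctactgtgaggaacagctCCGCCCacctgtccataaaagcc
Col8a2, chr4:126286544-126286793, plus strand: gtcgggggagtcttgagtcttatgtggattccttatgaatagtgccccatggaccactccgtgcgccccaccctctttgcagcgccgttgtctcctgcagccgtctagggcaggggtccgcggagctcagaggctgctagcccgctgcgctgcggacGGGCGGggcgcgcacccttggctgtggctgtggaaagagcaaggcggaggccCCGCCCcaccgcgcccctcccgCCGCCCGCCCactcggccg
Each window holds 4 matches on either strand, 2 of which overlap in Col8a2, and 32.7% of 32851 RefSeq windows of this length hold at least 1. Searched on both strands, the motif TATAAA had 0 matches in either window and occurs in 12.4% of all windows. The same count of 0 was found for CCAAT, which occurs in 33.8%, and for TAATCC, which occurs in 6.25%. The G and C share was 60.8% for Col8a1 and 70.0% for Col8a2, against a median of 52.4% over all windows. A match is a match of letters only, and binding was not measured.

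**Figure D3:**
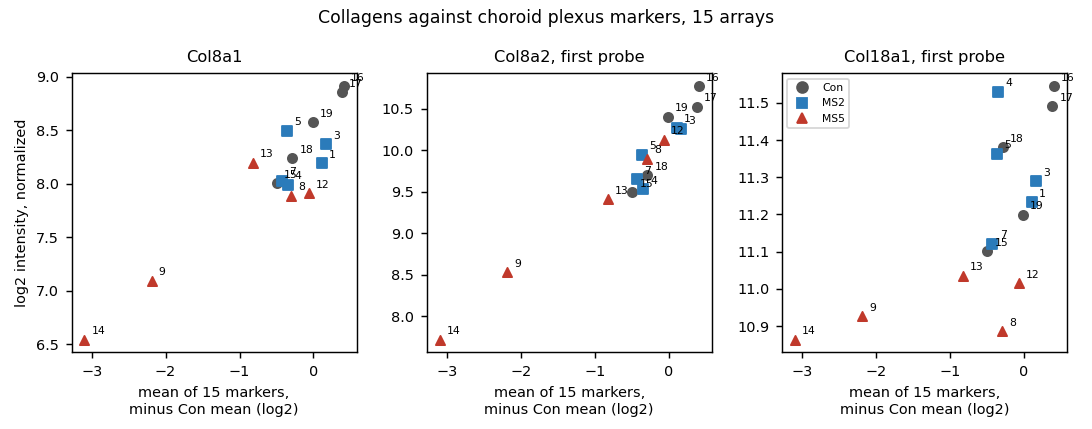
Normalized log2 intensity (y axis) of Col8a1, the first Col8a2 probe and the first Col18a1 probe against the mean of 15 choroid plexus markers relative to Con (log2, x axis), 1 point per array with replicate numbers. Col8a1 and Col8a2 rise with the markers, with MS5 replicates 9 and 14 at the lower left, while for Col18a1 MS5 replicates 8 and 12, which have marker means of -0.30 and -0.07, also lie below every Con array.

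Type XVIII collagen was lower in MS5 on both of its probes, and this difference did not rest on the same arrays. Col18a1 encodes the basement membrane collagen whose C-terminal fragment is endostatin. The first probe, A_55_P2059352 at chr10:76514926-76514985 on the minus strand, read 11.10, 11.55, 11.49, 11.38 and 11.20 on Con replicates 15 to 19. On the MS2 arrays it read 11.23, 11.29, 11.53, 11.36 and 11.12, and on MS5 replicates 8, 9, 12, 13 and 14 it read 10.89, 10.93, 11.01, 11.04 and 10.86. Every MS5 array lay below every Con array and below every MS2 array, and the MS2 and Con arrays overlapped. The means were 11.34 ± 0.19 in Con, 11.31 ± 0.15 in MS2 and 10.95 ± 0.08 in MS5 (SD, n = 5), so that MS5 was 0.40 below Con with a standard error of 0.09, a 1.32-fold difference (exact permutation p = 0.00794, the smallest possible). In limma the unadjusted p was 0.000447 against Con and 0.000998 against MS2, the smallest among the collagens in both contrasts, and the adjusted p in limma was 1.00 in both. MS2 differed from Con by -0.04 (unadjusted p = 0.690).

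The second Col18a1 probe, A_55_P2124791 at chr10:76515790-76515849, gave close differences: -0.37 with a standard error of 0.11 for MS5 against Con (unadjusted p = 0.00350), -0.28 against MS2 (unadjusted p = 0.0197) and -0.09 for MS2 against Con. Here 4 of the 5 MS5 arrays lay below all Con arrays. Within slide 1 MS5 was below Con by 0.36 and 0.35 on the 2 probes, and within slide 2 by 0.44 and 0.42. Without MS5 replicates 9 and 14 the differences were -0.36 (unadjusted p = 0.00515) and -0.37 (unadjusted p = 0.0116). With choroid plexus markers as a covariate they were -0.32 (unadjusted p = 0.0101) and -0.29 (unadjusted p = 0.0478). In each of the 10 fits that left out 1 Con or MS5 array both probes kept an unadjusted p under 0.05, with the first probe between -0.46 and -0.35. The first probe correlated with the marker mean at r = 0.32 and rho = 0.49 (permutation p = 0.249 and 0.0657, adjusted 0.345 and 0.0910), with r = 0.25 without MS5 replicates 14 and 12 and 0.49 and 0.44 within the slides. The other multiplexin, Col15a1, a collagen of the outer vascular basement membrane, had 3 probes with MS5 minus Con between -0.08 and -0.03 and MS2 minus Con between 0.002 and 0.12, none with an unadjusted p under 0.05. The glycine-repeat probe printed above was the lowest of these, at -0.08 (unadjusted p = 0.0978).

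All 9 probes of type IV collagen, the network of every basement membrane, had a lower mean in MS5 than in Con. Col4a1 and Col4a2 encode the alpha-1 and alpha-2 chains of the common vascular network. The Col4a1 probe, chr8:11199009-11199068 on the minus strand, had means of 12.55 ± 0.12 in Con, 12.59 ± 0.14 in MS2 and 12.44 ± 0.09 in MS5, with MS5 0.11 below Con (unadjusted p = 0.139) and 0.15 below MS2 (unadjusted p = 0.0494, exact permutation p = 0.0714). For Col4a2, chr8:11448840-11448899 on the plus strand, the means were 12.25 ± 0.10, 12.37 ± 0.19 and 12.21 ± 0.08, a difference of -0.04 between MS5 and Con (unadjusted p = 0.642). The 12 endothelial markers had means between -0.08 and 0.11 on every array, and their median difference from Con was 0.03 in MS5, with 1 marker lower and 1 higher at an unadjusted p under 0.05.

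Among the minor type IV chains, which form the networks known from kidney, lung, inner ear and smooth muscle, Col4a3, Col4a4 and Col4a5 each had a probe that was lower in MS5 at an unadjusted p under 0.05. Col4a3, chr1:82717775-82717834, read 6.81, 7.01, 7.25, 6.82 and 7.05 in Con and 6.96, 6.44, 6.76, 6.82 and 6.19 in MS5, a difference of -0.36 with a standard error of 0.14 (unadjusted p = 0.0197). Again MS5 replicates 14 and 9 were the lowest, and without them the difference was -0.14 (unadjusted p = 0.230). Of the 3 Col4a4 probes the one at chr1:82515563-82515622 read 6.62, 6.80, 6.79, 6.66 and 6.72 in Con and 6.55, 6.32, 6.58, 6.57 and 6.36 in MS5. Its groups did not overlap, with MS5 0.24 below Con (unadjusted p = 0.00306), 0.15 below without replicates 9 and 14 (unadjusted p = 0.0439) and 0.11 below with the choroid plexus covariate (unadjusted p = 0.107). The other Col4a4 probes differed by -0.22 and -0.06, the latter well above background on 4 of 15 arrays. Col4a5, chrX:138123547-138123606, read 9.64, 9.87, 9.73, 9.77 and 9.52 in Con and 9.31, 9.39, 9.60, 9.60 and 9.22 in MS5, which was 0.28 lower (unadjusted p = 0.0116), 0.26 lower within slide 1 and 0.29 within slide 2, and 0.20 lower without replicates 9 and 14 (unadjusted p = 0.0885). Its partner chain Col4a6 differed by -0.07 and -0.24 on 2 probes (unadjusted p = 0.453 and 0.120). The median of the 9 type IV probes was -0.22 in MS5, and 3 had an unadjusted p under 0.05, where 49.8% of all probes had a lower mean and 2.43% were lower at that p. Of the 3, those of Col4a3 and Col4a5 did not pass without replicates 9 and 14, and none of them passed with the covariate. In MS2 the median was -0.06 and 0 passed, where 2.12% of all probes were lower.

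The fibril-forming collagens of connective tissue did not differ between groups by more than their spread, but varied widely between animals. Col1a1 and Col1a2 encode the chains of type I and Col3a1 that of type III collagen. Col1a1, chr11:94813115-94813174, read 12.75, 13.29, 12.78, 12.78 and 11.83 in Con, 13.09, 13.13, 12.99, 12.55 and 12.44 in MS2 and 12.37, 12.97, 12.61, 12.80 and 12.13 in MS5. Con replicate 19 was the lowest of all 15 arrays and Con replicate 16 the highest, so the Con range spanned both treated groups. The differences from Con were 0.16 in MS2 and -0.11 in MS5 for Col1a1 (unadjusted p = 0.517 and 0.652), 0.09 and -0.20 for Col1a2 (unadjusted p = 0.666 and 0.354) and 0.01 and -0.22 for Col3a1 (unadjusted p = 0.972 and 0.401). Their standard errors were 0.23, 0.21 and 0.25, so differences of this size could not be told from 0. Col5a1 and Col5a2, chains of the type V collagen that nucleates such fibrils, were at -0.16 and -0.25 in MS5 (unadjusted p = 0.318 and 0.0994) and 0.05 and -0.10 in MS2. Col2a1, the cartilage fibril collagen, was at -0.32 in MS5 (unadjusted p = 0.0952).

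The spread of these genes ran along that of 15 meningeal markers, whose mean was -0.66 on Con replicate 19, -0.58 on MS5 replicate 8 and -0.36 on MS5 replicate 14 and between -0.24 and 0.36 on the other arrays. As deviations from group means, Col1a1 correlated with the meningeal mean at r = 0.85 and rho = 0.81 (permutation p = 0.0001 and 0.00049, adjusted 0.00036 and 0.00126), 0.76 without the 2 farthest arrays and 0.69 and 0.90 within the slides. For Col1a2 r was 0.82 and rho 0.76 (permutation p = 0.0002 and 0.00152, adjusted 0.000514 and 0.00342), and for Col3a1 they were 0.80 and 0.73 (permutation p = 0.00036 and 0.00279, adjusted 0.00081 and 0.00558). Without the 2 farthest arrays these r were 0.73 and 0.68, and they were 0.65 and 0.88, and 0.81 and 0.79, within the slides. Of the 15 meningeal markers 13 had a lower mean in MS5 than in Con and 0 had an unadjusted p under 0.05. How much meningeal tissue each dissection carried was not measured.

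**Figure D4:**
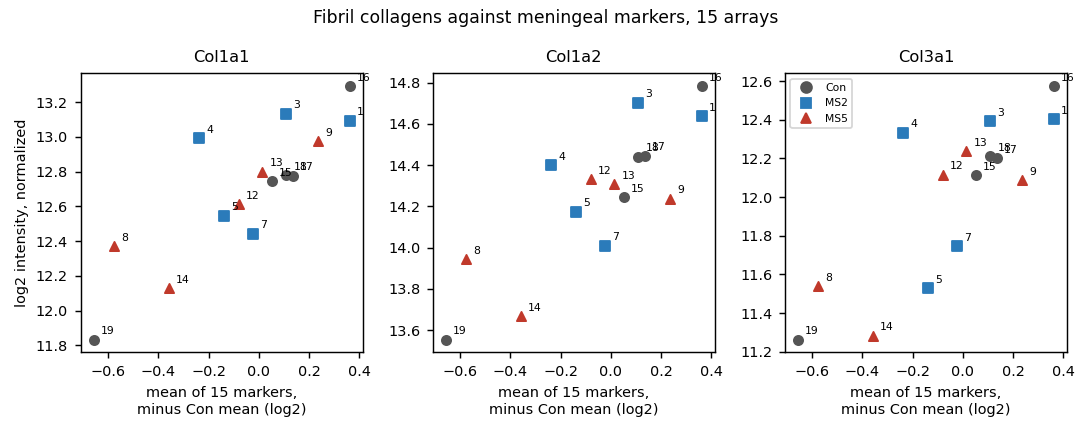
Normalized log2 intensity (y axis) of Col1a1, Col1a2 and Col3a1 against the mean of 15 meningeal markers relative to Con (log2, x axis), 1 point per array with replicate numbers. The 3 groups are interleaved along the slope, with Con replicate 19 lowest for each gene and Con replicate 16 at the upper right.

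Col27a1, a fibrillar collagen of cartilage and developing epithelia, was lower in MS5 in every animal. Its probe, chr4:62995485-62995544 on the plus strand, read 7.87, 7.93, 8.13, 8.12 and 7.91 in Con, 7.89, 7.96, 7.93, 7.70 and 7.78 in MS2 and 7.83, 7.61, 7.70, 7.82 and 7.39 in MS5. All MS5 arrays lay below all Con arrays, with the highest MS5 array at 7.83 and the lowest Con array at 7.87. The means were 7.99 ± 0.12 in Con, 7.85 ± 0.11 in MS2 and 7.67 ± 0.18 in MS5 (SD, n = 5), and MS5 was 0.32 below Con (SE 0.09, exact permutation p = 0.00794, the smallest possible). The unadjusted p in limma was 0.00193 in MS5 and 0.122 in MS2, where the difference was -0.14. The MS5 difference was -0.21 within slide 1 and -0.35 within slide 2, -0.21 without replicates 9 and 14 (unadjusted p = 0.0202), and -0.16 with choroid plexus markers as a covariate (unadjusted p = 0.0686).

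Col24a1, Col9a2 and Col11a2 had higher means in both treated groups, with an unadjusted p over 0.05 in each. Col24a1, a fibrillar collagen found in bone and in developing cerebral cortex, read 7.21, 6.68, 7.32, 7.25 and 7.49 in Con, 7.25, 7.04, 8.97, 7.17 and 7.69 in MS2 and 8.31, 7.59, 7.28, 7.84 and 7.78 in MS5 (chr3:145214473-145214532). In MS5 4 of 5 arrays were above every Con array, for a difference of 0.57 with a standard error of 0.31 (unadjusted p = 0.0868 in limma, two-sided exact permutation p = 0.0238). The highest value of all was that of MS2 replicate 4, the array with low hippocampal neuron markers. Without MS2 replicates 4 and 5 and MS5 replicate 9 the MS5 difference was 0.61 and past the threshold (unadjusted p = 0.0118), and the MS2 difference went from 0.43 to 0.13. Col9a2, a chain of the FACIT type IX collagen, read 12.32 on MS2 replicate 4 and 10.39 to 11.00 on the other 14 arrays (chr4:120727698-120727757). Its MS2 difference was 0.46 with all arrays and 0.13 without that array, and its MS5 difference was 0.28 (unadjusted p = 0.294), or 0.32 without the 3 arrays named (unadjusted p = 0.00456). Col11a2 read 9.78 on MS2 replicate 4 and at most 8.86 elsewhere, and its MS2 difference of 0.30 was -0.0003 without that array. Its partner Col11a1 was at -0.07 in MS2 and 0.05 in MS5, and Col5a3, a type V chain known from neural and other tissues, at 0.11 and 0.09, with unadjusted p between 0.489 and 0.576 over these 4 values.

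Among the FACIT collagens, the fibril-associated class, 1 of 16 probes was lower in MS5 at an unadjusted p under 0.05, where 2.43% of all probes were. The main Col9a1 probe, A_55_P1999532 at chr1:24259125-24259184, read 9.01, 9.04, 9.23, 8.91 and 8.99 in Con and 8.52, 8.75, 8.92, 8.89 and 8.61 in MS5, so that 4 of 5 MS5 arrays lay below Con. The difference was -0.30 with a standard error of 0.12 (unadjusted p = 0.0218), and it was -0.26 without replicates 9 and 14 (unadjusted p = 0.0898). The second Col9a1 probe showed a difference of -0.004, so the gene's probes disagreed. Col9a3, the third type IX chain, read 8.89 ± 0.60 in MS5 against 9.19 ± 0.36 in Con (SD, n = 5), a difference of -0.30 (unadjusted p = 0.237), which was 0.09 without replicates 9 and 14. Its values correlated with the choroid plexus mean at r = 0.82 and rho = 0.84 (permutation p = 0.00016 and 0.00015, adjusted 0.00048 and 0.000612), 0.84 without the 2 farthest arrays and 0.93 and 0.85 within the slides. Col14a1, a FACIT of dense connective tissue, differed by -0.38 and -0.13 on its probes in MS5 (unadjusted p = 0.0514 and 0.183). The former read 7.45 on MS5 replicate 14 and 7.99 on replicate 9, and was at -0.08 without them. Col12a1, a FACIT of stretched tissues, was at -0.19 in MS5 and -0.11 in MS2 (unadjusted p = 0.173 and 0.401). Col19a1, made by some hippocampal interneurons, was at -0.27 in MS2 and -0.23 in MS5 on one probe (unadjusted p = 0.234 and 0.310) and at 0.01 and 0.02 on the other. On the first of these MS2 replicate 4 was the lowest of all arrays, at 6.56.

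In MS2 1 of the 63 members was higher than Con at an unadjusted p under 0.05, 1.59% against 2.05% of all probes. It was a probe of the transmembrane collagen Col25a1. Col25a1 encodes the neuronal collagen from which the collagenous amyloid plaque component is shed, and it has 4 probes. The probe A_55_P2107715, chr3:130299222-130299281, read 7.26, 7.19, 7.25, 7.23 and 7.33 on Con replicates 15 to 19 and 7.44, 7.54, 8.18, 7.42 and 7.36 on MS2 replicates 1, 3, 4, 5 and 7. All MS2 arrays were above all Con arrays, with the highest value on replicate 4. The means were 7.25 ± 0.05 and 7.59 ± 0.34 (SD, n = 5), a difference of 0.34 (SE 0.15, exact permutation p = 0.00794, the smallest possible), and the unadjusted p in limma was 0.0355. Without MS2 replicate 4 the difference was 0.19, and 5 of the 10 fits that left out 1 array kept an unadjusted p under 0.05. The glycine-repeat probe of Col25a1 printed above differed by 0.14 in MS2, and the other probes by 0.09 and -0.09, with unadjusted p between 0.325 and 0.555. In MS5 the 4 probes differed by -0.02 to 0.17. The 3 probes of Col23a1, another transmembrane collagen, differed from Con by 0.08 to 0.27 in MS2 and 0.02 to 0.07 in MS5, with no unadjusted p below 0.0703.

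The beaded filament collagens had 0 of 6 probes with an unadjusted p under 0.05 in any contrast. Between 1.47% and 2.43% of all probes were called in each direction, so 6 probes are too few to tell this count from that share. Both Col6a6 probes and the Col6a4 probe A_65_P11326 were well above background on only 1 or 2 of the 15 arrays. Col6a1, a chain of the type VI collagen found around vessels and nerves, read 11.95 ± 0.09 in Con, 11.83 ± 0.37 in MS2 and 12.08 ± 0.40 in MS5 (SD, n = 5), with the lowest value, 11.24, on MS2 replicate 4 and the highest, 12.72, on MS5 replicate 8. The difference of MS5 from MS2, 0.25, was the largest positive difference in that contrast (unadjusted p = 0.19). Col6a2 differed from Con by 0.11 in MS2 and 0.03 in MS5 (unadjusted p = 0.422 and 0.846). Col7a1, which forms the anchoring fibrils of skin, was at 0.07 and 0.14, and Col28a1 at -0.04 and 0.01.

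Chains that assemble into the same molecule were compared over the 15 arrays as deviations from the group means, in 10 pairs within the family of 18 relations, and 5 pairs had an adjusted p under 0.05 for r. The largest r was that of the type I chains Col1a1 and Col1a2, 0.96 with rho = 0.84 (permutation p = 1.0e-05 and 0.00017, adjusted 9.0e-05 and 0.000612), 0.91 without Con replicate 19 and MS5 replicate 14, and 0.97 and 0.96 within the slides. The vascular pair Col4a1 and Col4a2 had r = 0.75 and rho = 0.69 (permutation p = 0.00086 and 0.00525, adjusted 0.00155 and 0.00945), 0.62 without the 2 farthest arrays, and 0.59 and 0.84 within the slides. In the RefSeq table these genes lie head to head, as do Col4a3 with Col4a4 and Col4a5 with Col4a6. For Col4a3 and Col4a4 r was 0.48 and rho 0.51 (permutation p = 0.0691 and 0.0558, adjusted 0.104 and 0.0836), with 0.44 without the 2 farthest arrays and 0.45 and 0.48 within the slides. Col4a5 and Col4a6 had r = 0.78 and rho = 0.83 (permutation p = 0.00075 and 0.00024, adjusted 0.0015 and 0.00072), 0.75 without the 2 farthest arrays, and 0.85 and 0.74 within the slides.

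The type V pair Col5a1 and Col5a2 had r = 0.56 and rho = 0.57 (permutation p = 0.0295 and 0.0279, adjusted 0.0483 and 0.0457), but 0.45 without the 2 farthest arrays and 0.93 and 0.41 within the slides, so the relation varied with the arrays used. Of the type IX chains, Col9a1 had r = 0.03 and rho = -0.12 with Col9a2 (permutation p = 0.917 and 0.667, adjusted 0.917 and 0.726) and r = 0.22 and rho = 0.16 with Col9a3 (permutation p = 0.435 and 0.568, adjusted 0.522 and 0.702). Without the 2 farthest arrays these r were -0.09 and 0.23, and within the slides -0.11 and 0.26, and 0.01 and 0.42. Col6a1 and Col6a2 had r = -0.12 and rho = -0.08 (permutation p = 0.664 and 0.792, adjusted 0.747 and 0.792), -0.04 without the 2 farthest arrays and -0.32 and -0.10 within the slides. For Col11a1 and Col11a2 they were 0.29 and 0.15 (permutation p = 0.304 and 0.585, adjusted 0.391 and 0.702), 0.22 without the 2 farthest arrays and -0.37 and 0.43 within the slides. Col4a1 and the endothelial marker mean had r = 0.08 and rho = 0.11 (permutation p = 0.766 and 0.686, adjusted 0.811 and 0.726), 0.17 without the 2 farthest arrays and -0.38 and 0.61 within the slides.

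Of 49 genes that fold, cut, cross-link, degrade and bind collagen, 11 were lower in MS5 than in Con at an unadjusted p under 0.05, which is 22.4% against 2.43% of all probes, and 0 were higher against 1.47%. The mean was lower for 36 of them, 73.5% against 49.8% of all probes, with a median of -0.07 (log2). In MS2 the counts were 2 lower (4.08% against 2.12%) and 0 higher (against 2.05%), and for MS5 against MS2 they were 6 (12.2% against 2.25%) and 0 (against 1.72%). Past 1.5-fold were Fap and Pcolce2 in MS5 against Con, and Fap in MS5 against MS2. The smallest adjusted p in limma among these values was 0.970. The 49 genes were chosen with earlier results known, and the study had already reported Pcolce2 and Loxl1 as lower in MS5. Each gene was represented by its brightest probe, whereas all probes include 15581 that were not well above background on every array of any group. The shares are therefore not like for like and are not independent support. The choroid plexus markers were lower on the same MS5 arrays, all 15 in the mean, with a median of -1.27. Without MS5 replicates 9 and 14, 5 of the 49 genes were lower than Con (Crtap, Fap, Glt25d2, Loxl2 and Pcolce2), 10.2% beside 1.31% of all probes. In that setting 0 were lower than MS2, beside 1.25%. With the choroid plexus covariate, 2 were lower than Con (Glt25d2 and Pcolce2), 4.08% beside 1.40%, and 1 was higher, beside 0.984%. There 0 were lower than MS2, beside 1.83%. Without the 3 arrays that stood apart, 11 were lower in MS5 than in Con and 1 higher, beside 3.51% and 3.18%. Between the doses 12 were then lower in MS5 and 2 higher, beside 4.00% and 3.19%. In MS2 against Con 0 were lower, beside 2.38%.

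By role, the secretory chaperone Serpinh1, which holds the folded triple helix in the endoplasmic reticulum, had an unadjusted p under 0.05 in both treated groups, with a mean 0.23 lower in MS2 (unadjusted p = 0.0393, exact permutation p = 0.0635) and 0.28 lower in MS5 (unadjusted p = 0.0135, exact permutation p = 0.0476), and Fkbp10 was 0.25 lower in MS5 (unadjusted p = 0.0327, exact permutation p = 0.0159). The prolyl 3-hydroxylation partners Crtap and Ppib were lower by 0.28 and 0.12 in MS5 (unadjusted p = 0.00820 and 0.0346, exact permutation p = 0.0159 and 0.0476), and Ppib by 0.17 in MS2 (unadjusted p = 0.00438, exact permutation p = 0.0159). The other 12 of 14 genes for prolyl and lysyl modification, including the prolyl 4-hydroxylases and lysyl hydroxylases, did not pass in MS5. Among the 8 genes of propeptide removal, Pcolce2, an enhancer of the C-proteinase, went from 10.24 ± 0.29 in Con to 9.60 ± 0.41 in MS5 (SD, n = 5), a difference of -0.64 (exact permutation p = 0.0317), and Pcolce was 0.36 lower (unadjusted p = 0.0331, exact permutation p = 0.0952). The Pcolce2 difference was -0.35 without MS5 replicates 9 and 14 (unadjusted p = 0.0221), and with the covariate it was -0.21 (unadjusted p = 0.0480). Of the 5 lysyl oxidases, which cross-link fibrils, Loxl1 was 0.54 and Loxl2 0.41 lower in MS5 (unadjusted p = 0.0239 and 0.00447, exact permutation p = 0.0714 and 0.0159).

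Among the 8 breakdown genes, Fap, a serine protease of activated fibroblasts that cuts denatured collagen, went from 10.62 ± 0.35 in Con to 9.61 ± 0.61 in MS5 (SD, n = 5), a difference of -1.01 (exact permutation p = 0.00794, the smallest possible), and was 0.76 below MS2 (unadjusted p = 0.0136, exact permutation p = 0.0397). Leaving out MS5 replicates 9 and 14, it was 0.64 below Con (unadjusted p = 0.0155) and 0.40 below MS2 (unadjusted p = 0.108), and with the covariate 0.40 below Con (unadjusted p = 0.0800). The gelatinase Mmp2 was 0.25 lower in MS5 than in Con (unadjusted p = 0.0405, exact permutation p = 0.119), and the uptake receptor Mrc2 was 0.23 below MS2 (unadjusted p = 0.0468, exact permutation p = 0.0873). Of the 9 collagen receptors Itga10, the integrin alpha-10 chain, was 0.31 lower in MS5 (unadjusted p = 0.0203, exact permutation p = 0.0635) and none was higher. The discoidin receptors Ddr1 and Ddr2, which bind native collagen, were at -0.12 and -0.24 (unadjusted p = 0.216 and 0.0581).

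**Figure D5:**
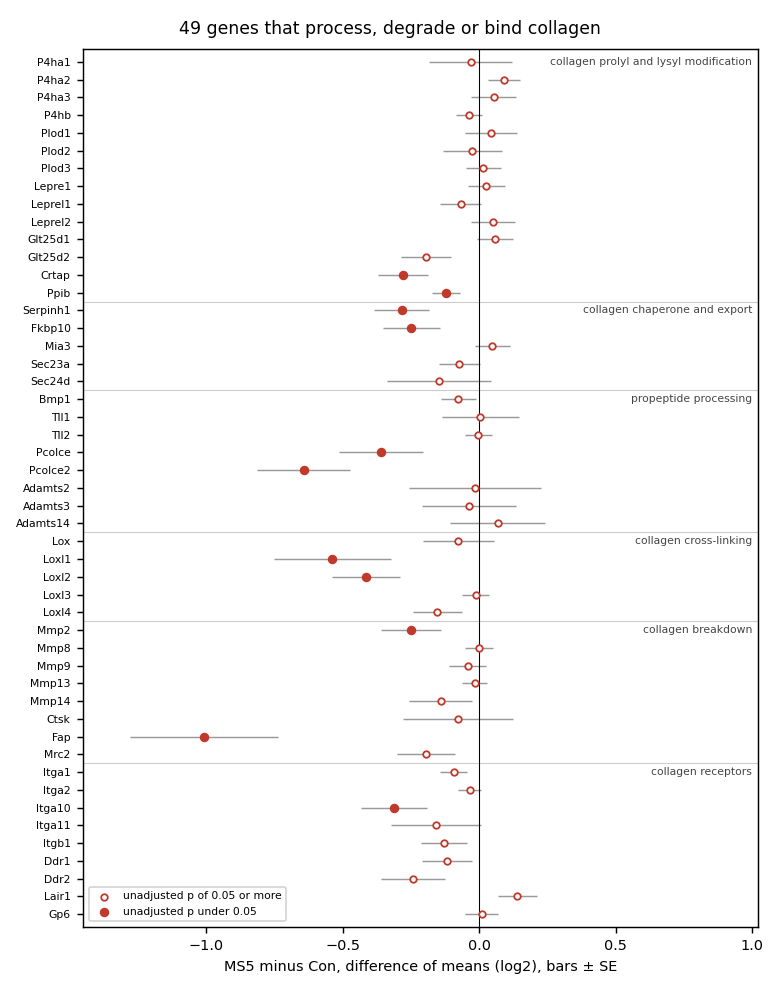
Difference of means between MS5 and Con (log2, x axis, bars of 1 standard error) for 49 genes that process, degrade or bind collagen (y axis, by role), with filled points at an unadjusted p under 0.05. The 11 filled points all lie to the left of 0, with Fap at -1.01 and Pcolce2 at -0.64 farthest from it.

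The miR-29 family, whose best known targets are collagen mRNAs, was read on 9 Affymetrix miR arrays, 3 per group, which shared 8 animal numbers with the mRNA arrays. The mature RefSeq sequences, with positions on GRCm38.p6, are shown because the family is defined by its shared seed, bases 2 to 8, printed in capitals.
mmu-miR-29a-3p, chr6:31062673-31062694, minus strand: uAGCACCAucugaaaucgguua
mmu-miR-29b-3p, chr6:31063025-31063047, minus strand, and chr1:195037091-195037113, plus strand: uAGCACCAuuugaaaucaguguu
mmu-miR-29c-3p, chr1:195037600-195037621, plus strand: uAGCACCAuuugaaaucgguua
The array names carry no arm, and the probe sets mmu-miR-29a, 29b and 29c are given here beside those marked star. miR-29a read 7.89, 7.91 and 7.78 in Con, 8.54, 7.70 and 8.37 in MS2 and 8.43, 8.21 and 8.44 in MS5. All 3 MS5 arrays were above all 3 Con arrays, with a difference of 0.50 and a standard error of 0.19 (two-sided exact permutation p = 0.1, the smallest possible with 3 against 3), while MS2 overlapped Con because replicate 4 was low. In limma the unadjusted p of miR-29a was 0.0254 in MS5 and 0.0994 in MS2, and 8.5% and 13.2% of the 1412 probe sets had an unadjusted p under 0.05 in these contrasts, as did 7.01% between the doses. Its adjusted p in limma was 0.512 in MS5 and 0.51 in MS2. At an adjusted p under 0.05 limma called 16 of the 1412 probe sets in MS2, none of them from the miR-29 family. It called 0 in MS5 against Con and 0 between the doses. For miR-29a, leaving out 1 of the Con or MS5 arrays gave differences between 0.46 and 0.58, of which 2 of 6 had an unadjusted p under 0.05. For MS2 against Con they lay between 0.18 and 0.60, the latter without MS2 replicate 4, and 1 of 6 had an unadjusted p under 0.05. The smallest adjusted p of miR-29a in limma under any alternative was 0.0145 in MS2 and 0.278 in MS5. The former is the lowest of several fits, and the main fit gave 0.51. In MS2, 1 of 2 alternative settings with all arrays had an unadjusted p under 0.05. How many of the 1412 probe sets passed in the fit with 0.0145 is not given here.

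The other members of the seed family moved less. miR-29b differed from Con by 0.06 in MS2 and 0.07 in MS5, and miR-29c by 0.08 and 0.13, with unadjusted p between 0.663 and 0.783. The MS2 values of miR-29c were 5.62, 4.34 and 5.42, a spread larger than any of these differences. Among the star probe sets, miR-29c-star was higher in MS2, at 4.68 ± 0.06 against 4.38 ± 0.08 in Con (SD, n = 3, exact permutation p = 0.1), with a difference of 0.30, an unadjusted p of 0.00205 and an adjusted p of 0.0934 in limma. It differed by 0.06 in MS5. miR-29a-star was 0.18 lower in MS2 (unadjusted p = 0.0429) and 0.03 higher in MS5 (unadjusted p = 0.707), and miR-29b-star differed by 0.06 and -0.11 (unadjusted p = 0.481 and 0.177). No relation between the miR values and the collagen values was tested over the animals measured on both platforms.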

How the data were processed

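Hippocampal RNA was measured on 15 one-colour Agilent mRNA arrays and 9 Affymetrix miR arrays. Groups were taken from the labels, and 0 columns of samples were left unused. The authors deposited log2 values for the mRNA arrays, made from Feature Extraction 10.7.1.1 intensities by normexp with an offset of 50 and quantile normalization, and log2 RMA values for the miR arrays. The scanner intensity columns, also deposited, were used for background flags and alternatives. The offset compresses differences of dim probes. All 55681 non-control probes were fitted in limma 3.58.1 (R 4.3.3) with 3 groups in 1 model and Benjamini-Hochberg adjustment, and the procedure was tested on simulated data. The study's threshold was 1.5-fold with an unadjusted p under 0.05. Members and gene lists were chosen with earlier results of these data known. Probes named by rule were those past the threshold, the 3 largest differences either way in each contrast, and chains listed for their known source in brain, with every probe of such a gene. Col4a4, Col4a5, Col9a1, other collagens below an unadjusted p of 0.05, and handling genes not past the threshold were named after their values were seen. Alternatives changed background correction, normalization, array weights, dim-probe filter, slide, samples and arrays left out. RefSeq sequences and names were from the GRCm38.p6 tables, where all 41 gene names matched.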

Additional observations from a re-analysis of the deposited data

Results flagged for a closer look

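In each group of 5 arrays the highest and lowest arrays were compared with the others by Dixon's ratio, over 35 named probes and 9 marker lists in 3 groups, 132 groups of values in all. Chance flags about 5% of such groups, and 7 were flagged. Of these, 5 were on MS2 replicate 4. That array read 12.3 for Col9a2, where the other MS2 arrays read 10.5 to 10.8, and 9.78 for Col11a2, where the others read 8.23 to 8.34. On the Col25a1 probes A_55_P2107711 and A_55_P2107715 it read 8.11 and 8.18, against 7.23 to 7.43 and 7.36 to 7.54. Its mean of the hippocampal neuron markers was -1.99 relative to Con, against -0.11 to 0.16 on the other MS2 arrays. MS2 replicate 7 read 10.8 for the second Col18a1 probe, where the others read 11.0 to 11.1. The astrocyte marker mean of MS5 replicate 9 was -0.18, against 0.04 to 0.11 on the other MS5 arrays. The part of any of these arrays in the group differences was not tested beyond the fits without them.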

How the results depend on the processing

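The study returned treated pups to a home cage shared with control littermates, but which arrays share a litter is not given. No pairing or blocking by litter was therefore possible. Precision is limited by 5 arrays a group, and 7 collagen probes were not well above background on every array of any group. The smallest adjusted p of a collagen in limma under any alternative was 0.574 for MS2 against Con, 0.382 for MS5 against Con and 0.450 between the doses. Counts below are of collagen probes. The share of all probes called also changes between settings, so a changed count alone is not a result about collagens. For MS5 against MS2, 2.25% of all probes were lower as reported. That share was 4.00% without the 3 arrays that stood apart, 1.25% without MS5 replicates 9 and 14 and 1.83% with the choroid plexus covariate. It is not given here for array weights, slide, offset, processed signal or fits that left out 1 array. For MS2 against Con, the number higher at an unadjusted p under 0.05, 1 as reported, was 0 with the scanner's processed signal and with 1 probe per gene, 3 with array weights and 4 without the 3 arrays that stood apart, when 1 was lower. For MS5 against Con, the number past the threshold and lower, 2 as reported, was 1 without those 3 arrays and 0 without MS5 replicates 9 and 14 or with the choroid plexus covariate. The number past it and higher, 0 as reported, was 1 with an offset of 0 and 1 without the 3 arrays. The number lower at an unadjusted p under 0.05, 9 as reported, was 3 with the covariate, and the number higher, 0 as reported, was 1 with an offset of 0, with array weights, without replicates 9 and 14 and with the covariate, 2 with only the 2 groups fitted and 4 without the 3 arrays. The median, -0.06 as reported, was -0.13 with 1 probe per gene. The Col8a2 probe A_52_P302544 turned from -1.04 to 0.0284 with the covariate, which takes up the shared movement with the markers.

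For MS5 against MS2, the number past the threshold and lower, 1 as reported, was 2 with an offset of 0 or array weights and 0 without the 3 arrays, without replicates 9 and 14 and with the covariate, and 1 was past it and higher with an offset of 0. The number lower at an unadjusted p under 0.05, 7 as reported, was 17 with array weights, 4 with slide as a block, with only the 2 groups fitted and with 1 probe per gene, 2 without replicates 9 and 14 and 1 with the covariate. The number higher, 0 as reported, was 1 with an offset of 0, with array weights, without the 3 arrays and without replicates 9 and 14, and 2 with the covariate. Leaving out 1 array at a time gave, for MS2 against Con, 0 to 1 past the threshold and higher, 0 to 1 lower and 0 to 3 higher at an unadjusted p under 0.05, and a median from -0.02 to 0.04. For MS5 against Con it gave 1 to 2 past the threshold and lower, 6 (without MS5 replicate 14) to 15 (without Con replicate 19) lower, 0 to 1 higher and a median from -0.09 to -0.05. For MS5 against MS2 it gave 0 to 2, 2 (without MS5 replicate 14) to 14 (without MS2 replicate 5), 0 to 1 and a median from -0.14 to -0.07. The cause of these changes was not tested.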
